A study of Homo sapiens with 2 samples.

Results

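The enzymes described here move methyl and other one-carbon groups through the liver cell, and 9 genes were chosen by name: MAT1A, MAT2A, GNMT, AHCY, BHMT, CBS, CTH, SHMT1 and SHMT2. All 9 were found among the 60623 gene entries of the series, and all passed the minimum of 10 counts over both libraries. The RNA came from HepG2, a line grown from a human hepatocellular carcinoma and labelled WT, and each of 2 groups has 1 library. Both groups received 1 mM free fatty acids (FFA; oleic and palmitic acid bound to albumin) for 24 h. The FFA + 9-cis-RA group also received 10 μM 9-cis-retinoic acid, a ligand of the RXR and RAR nuclear receptors, and no library of cells without FFA was analysed here. The paper's methods give 24 h for the retinoid, following the FFA, while its results describe a co-treatment. HepG2 cells are a tumor line and no substitute for normal hepatocytes.

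In the methionine cycle, methionine is joined to ATP to give S-adenosylmethionine (SAM), the methyl donor of most methylation reactions. Each methyl transfer leaves S-adenosylhomocysteine (SAH), which is split to homocysteine. Homocysteine is then either methylated back to methionine or passed through transsulfuration to cysteine, and the folate cycle, fed mainly by serine, supplies one-carbon units. The liver carries out much of the body's methionine metabolism, and normal hepatocytes use MAT1A for SAM synthesis while liver tumors and growing cells often use MAT2A. GNMT, which consumes SAM by methylating glycine, is known as a gene that responds to retinoids in rodent liver.

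The FFA library held 60821539 counts on genes and the FFA + 9-cis-RA library 57669670. As a check of the treatment label, CYP26A1, a retinoic acid hydroxylase gene, had 4 counts with FFA alone and 709 with 9-cis-RA. Hepatocyte markers were abundant, with SERPINA1 at 294592 and 296345 counts, whereas TTR had 341 and 278. AFP went from 273242 to 134862 counts (log2 fold change -0.99) and ALB from 186609 to 112866 (-0.70), while APOA1 (0.039) and SERPINA1 (0.036) were slightly higher. TTR was at -0.27 and TF at -0.19. The 6 listed hepatocyte markers thus differed in direction, with 4 lower and 2 higher, beside the results below. Their part in these results was not tested, and in bulk RNA fewer expressing cells and less RNA per cell cannot be told apart. The leukocyte markers PTPRC and CD3E had at most 1 count per library and CD68 had 5 and 15, but LYZ, a gene of the same list, had 5883 and 3332. The 3 endothelial markers had between 10 and 184 counts, and the 4 stellate and fibroblast markers between 0 and 37.

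The levels of the 9 genes ran from 465 TPM for AHCY to 5.67 for GNMT with FFA alone. Levels of different genes were compared per length, as TPM (counts per exonic length, scaled to the same sum in each library), and intervals are exact 95% Poisson intervals that cover counting error only. In the FFA library, AHCY had the highest level at 465 TPM (460 to 470), followed by MAT1A at 309 (305 to 313), MAT2A at 281 (278 to 285) and SHMT2 at 212 (209 to 215). These 4 genes took 90.4% of the counts of the 9 genes with FFA alone and 89.5% with 9-cis-RA. BHMT at 62.5 TPM, SHMT1 at 34.0 and CTH at 15.0 lay below them. The lowest were CBS at 6.22 TPM (5.82 to 6.64) and GNMT at 5.67 (4.73 to 6.74), whose intervals overlapped, so their order in the FFA library was not resolved. The CBS level is too low by an unknown amount, since reads that match its annotated copy CBSL were left out. In the FFA + 9-cis-RA library the order of the leading genes differed: AHCY at 519 TPM was followed by MAT2A at 290 (286 to 294), SHMT2 at 226 (223 to 229) and MAT1A at 208 (205 to 212). MAT1A thus stood only behind AHCY with FFA alone and behind 3 of the enzymes with 9-cis-RA. GNMT, at 3.27 TPM (2.54 to 4.14), was the lowest in the FFA + 9-cis-RA library, below CBS at 7.19 (6.74 to 7.67). TPM was used only for levels within a library, because the TPM ratio of a gene was higher than its normalized count ratio by 0.090 on the log2 scale. Together the 9 genes took 0.198% of all counts with FFA alone and 0.192% with 9-cis-RA.

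**Figure D1:**
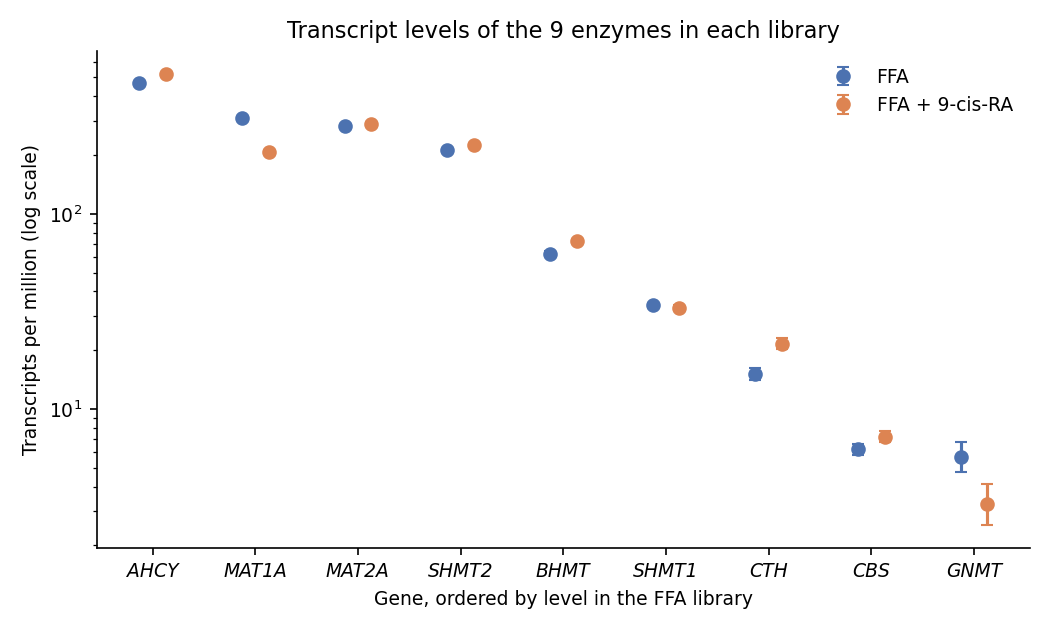
Transcript levels of the 9 enzymes in TPM (vertical log axis) in the FFA library and the FFA + 9-cis-RA library, with 95% Poisson intervals as bars where they are wider than the points. MAT1A stands at 309 and 208 TPM and crosses MAT2A, at 281 and 290, while GNMT has the lowest value in both libraries, with an interval that overlaps that of CBS for FFA alone. CBS is counted low because reads that match its annotated copy CBSL were left out.

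To ask how these genes differed between the treatments, counts were divided by DESeq2 size factors, a pseudocount of 1 was added, and the log2 ratio of FFA + 9-cis-RA to FFA was taken as the log2 fold change (called log2 ratio below). Each value has an exact 95% counting interval. Because each group has 1 library, no replicate check and no p-value can be given, and the intervals compare these 2 libraries, not the treatments. None of the 9 genes had a log2 ratio above 1 or below -1, thresholds passed by 3.37% and 4.9% of the 20431 genes compared. Genes with few counts pass them more often: of the 14411 genes with 100 or more counts, 79 were above 1 and 254 below -1. The counting interval lay above 0 for 3 genes (AHCY, BHMT and CTH) and below 0 for 4 (MAT1A, MAT2A, GNMT and SHMT1), against 22.5% and 25.7% of all genes compared. Narrow intervals are common at these counts: among the 14411 genes with 100 or more counts in the libraries together, as all 9 have, the shares were 29.1% and 32.2%. So few genes set against such shares give no result about the group as a whole. The median log2 ratio of the 9 genes was 0.0015, against -0.020 for all genes compared. Values differed from gene to gene, with GNMT and MAT1A at the lower end and CTH at the upper end.

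**Figure D2:**
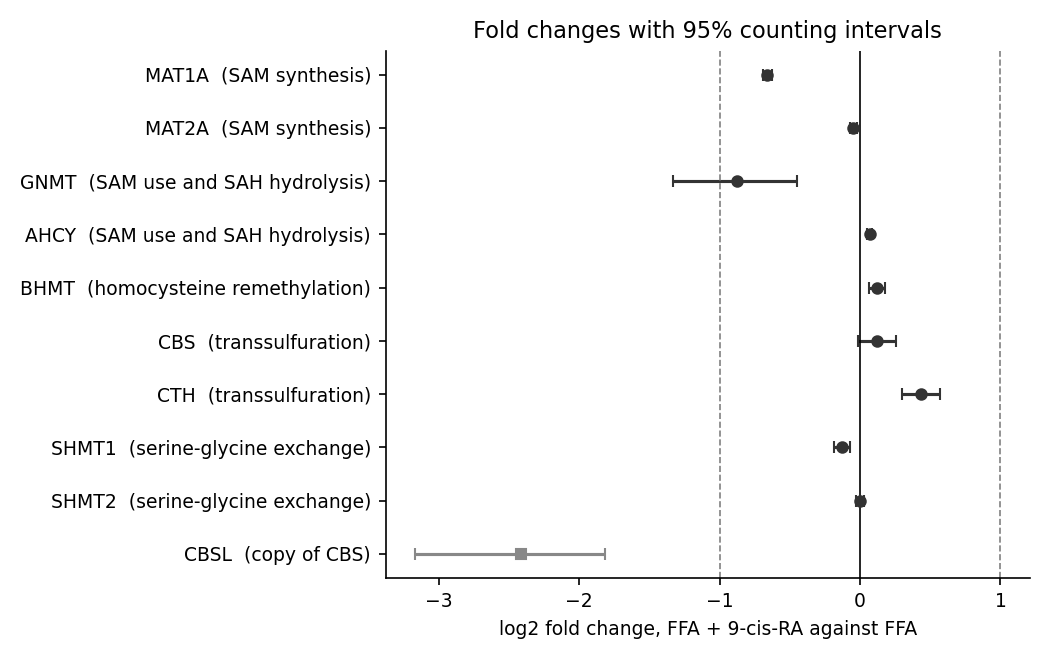
log2 fold change of each enzyme and of CBSL, the copy of CBS (horizontal axis, FFA + 9-cis-RA against FFA), with exact 95% counting intervals and dashed lines at -1 and 1. GNMT at -0.88 and MAT1A at -0.66 lie left of 0, CTH at 0.43 lies right, and the other 6 enzymes lie between -0.13 and 0.12, while CBSL is at -2.41.

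SAM synthesis showed a difference between its paired catalytic genes. MAT1A, which encodes the methionine adenosyltransferase subunit of adult liver, lies on chromosome 10 from 80271820 to 80289658 of GRCh38, on the minus strand. It had 23756 counts with FFA alone and 14763 with 9-cis-RA. Its log2 ratio was -0.66 (95% interval -0.69 to -0.63), or 0.633 of the FFA level. Of the 14411 genes with at least 100 counts, 4.93% had a lower value. MAT2A, which encodes the subunit found in most other tissues and in growing cells, lies on chromosome 2 from 85539168 to 85545281 on the plus strand. It had 26490 and 25153 counts, a log2 ratio of -0.047 (95% interval -0.072 to -0.022), a value so small that its sign depended on the scaling (0.0021 with total counts). The MAT2A to MAT1A ratio per length was 0.911 (95% interval 0.895 to 0.927) with FFA alone and 1.39 (1.36 to 1.42) with 9-cis-RA. MAT1A was thus the more abundant of the pair in one library and MAT2A in the other. The log2 change of this ratio, which no scaling of the libraries can move, was 0.61 (large-sample 95% counting interval 0.57 to 0.65). MAT2B, the gene of the regulatory subunit, had 3252 and 3390 counts (log2 ratio 0.088), and METTL16, an RNA methyltransferase that acts on MAT2A mRNA, had 3714 and 3780 (0.053, interval -0.013 to 0.12).

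The steps that use SAM and clear SAH also differed from each other. GNMT, glycine N-methyltransferase, lies on chromosome 6 from 42960754 to 42963880 on the plus strand and had 128 counts with FFA alone and 68 with 9-cis-RA. Its log2 ratio was -0.88 (95% interval -1.33 to -0.45), or 0.545 of the FFA level. The value was lower in the retinoid-treated library, and its direction was not compared with that of the rodent response named above. The interval is wide because the counts are few. Of the genes with at least 100 counts, 2.51% had a lower value. The 3 genes nearest to GNMT by the distance of log2 normalized counts in the 2 libraries were CASKIN1 (125 and 67 counts, distance 0.040), NONOP2 (128 and 70, 0.041) and GOLGA6FP (127 and 66, 0.044), a likeness that rests on 2 values per gene. NONOP2 and GOLGA6FP are annotated as pseudogenes, whose counts are uncertain. AHCY, which encodes SAH hydrolase, lies on chromosome 20 from 34280268 to 34311802 on the minus strand and had 37997 and 39075 counts. Its log2 ratio of 0.068 (95% interval 0.048 to 0.088) was small. A same-strand gene, AL035458.2, covers 3.57% of its exons, and reads in that stretch were left out. The related genes AHCYL1 and AHCYL2, which encode AHCY-like proteins, had log2 ratios of 0.073 and 0.29 (95% interval 0.20 to 0.38).

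Homocysteine remethylation was nearly level. BHMT, which returns a methyl group from betaine to homocysteine, lies on chromosome 5 from 79111809 to 79132288 on the plus strand. It had 4577 counts with FFA alone and 4887 with 9-cis-RA, a log2 ratio of 0.12 (95% interval 0.064 to 0.18). Its neighbor BHMT2, which uses S-methylmethionine as the methyl donor, had 5848 and 5344 counts and a value of -0.10 (-0.16 to -0.049). The BHMT to BHMT2 ratio per length was 0.838 with FFA alone and 0.980 with 9-cis-RA, a log2 change of 0.22 (0.15 to 0.30). Of the sequence windows of 100 bases in annotated BHMT transcripts, 1.91% also occur in BHMT2. The cobalamin-dependent route was slightly higher, with methionine synthase (MTR) at 0.16 and its reductase (MTRR) at 0.10.

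Transsulfuration held the highest value of the 9 genes, that of CTH, and CBS, whose counts are limited by a copy of the gene. CTH, cystathionine gamma-lyase, which releases cysteine, lies on chromosome 1 from 70411218 to 70439851 on the plus strand. It had 762 counts with FFA alone and 1010 with 9-cis-RA, a log2 ratio of 0.43 (95% interval 0.30 to 0.57), or 1.35 times the FFA level. Of the genes with at least 100 counts, 4.85% had a higher value. CBS, cystathionine beta-synthase, which joins homocysteine to serine, lies on chromosome 21 from 43053191 to 43076943 on the minus strand. It had 886 and 944 counts, and its log2 ratio of 0.12 had a counting interval that reached below 0 (-0.015 to 0.25). With TMM scaling the interval was 0.0039 to 0.27 and with total counts 0.034 to 0.30, so whether it includes 0 depends on the scaling.

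GRCh38 holds CBSL, the copy of CBS, on the short arm of chromosome 21, from 6444869 to 6468040, which genome curators have since classed as a false duplication. In GENCODE 29, principal coding transcripts of CBS and CBSL with the same length of 2453 bases differ at 1 base. The coding stretch around it is shown from each entry because it is where these annotated sequences differ. With a false duplication, this base decides where a read that covers it in these transcripts is counted, and does not show a second gene as its source. Other annotated transcripts of both entries also hold stretches that are not shared, which place reads without this base. The capital letter marks the base that differs.
CBS, chr21:43065225-43065254, minus strand: cccctggctcactaCgacaccaccgctgat
CBSL, chr21:6456903-6456932, minus strand: cccctggctcactaTgacaccaccgctgat
Of the windows of 100 bases in all annotated CBS transcripts, 50.3% also occur in CBSL, and 83.5% of those of CBSL occur in CBS. With windows of 50 bases, 54.5% of those of CBS occur in transcripts of other genes. Reads that match both copies were left out of the deposited counts, so the CBS level above is too low by an unknown amount. CBSL itself had 129 counts with FFA alone and 23 with 9-cis-RA, a log2 ratio of -2.41 (95% interval -3.17 to -1.81). Only 8 of the 14411 genes with at least 100 counts had a lower value. The CBSL share of the summed counts of both copies was 12.7% with FFA alone and 2.38% with 9-cis-RA. The summed counts were 1015 and 967, a log2 ratio of -0.042 (95% interval -0.17 to 0.086). The direction for CBS thus depends on whether the copy is added, and with DESeq2 scaling both intervals include 0. With the copy classed as a false duplication, the sum is the fuller count of CBS, though reads that match both entries are still missing. The separate values of CBS and CBSL then also reflect how reads were assigned between the entries. Of the other 8 enzymes, none shared more than 1.91% of its windows of 100 bases with another gene.

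The serine-to-glycine step was close to level. SHMT2, the mitochondrial serine hydroxymethyltransferase, lies on chromosome 12 from 57229573 to 57234935 on the plus strand and had 20458 and 20091 counts. Its log2 ratio was 0.0015 with an interval from -0.027 to 0.030, which as far as counting error goes leaves out larger differences between the libraries. SHMT1, the cytosolic enzyme, lies on chromosome 17 from 18327860 to 18363563 on the minus strand and had 5196 and 4659 counts, a log2 ratio of -0.13 (95% interval -0.19 to -0.072). The SHMT2 to SHMT1 ratio per length was 6.24 (95% interval 6.06 to 6.44) with FFA alone and 6.84 (6.62 to 7.06) with 9-cis-RA. The mitochondrial gene was the more abundant of the pair in both libraries, with a log2 change of the ratio of 0.13 (0.068 to 0.19).

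**Figure D3:**
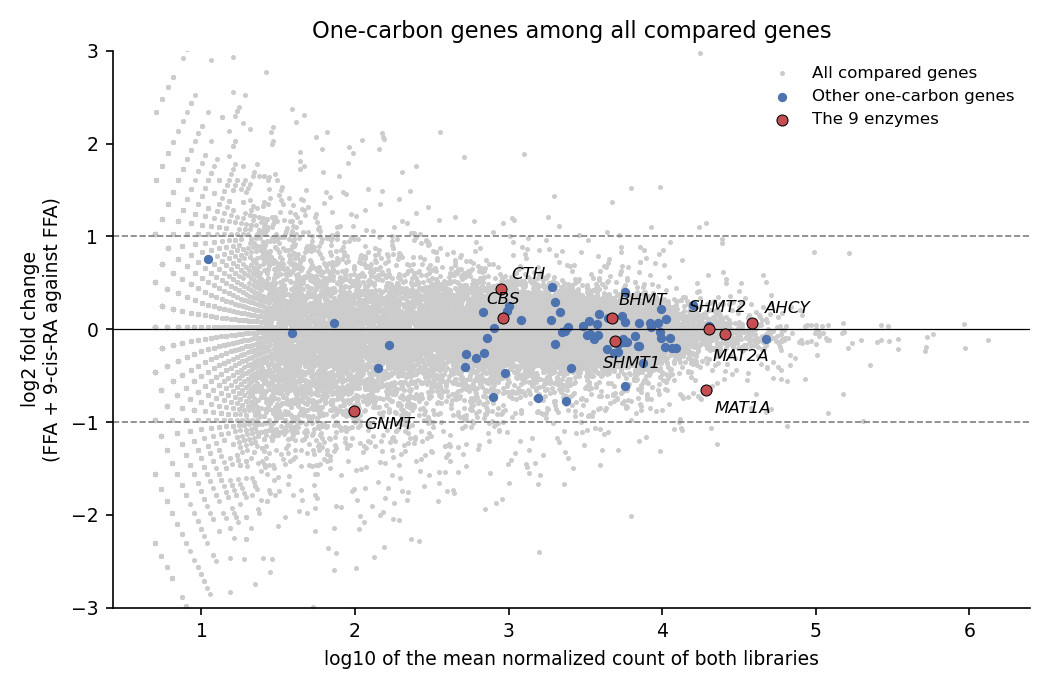
log2 fold change of the 20431 compared genes (vertical axis, FFA + 9-cis-RA against FFA) by the log10 of their mean normalized count, with the 9 enzymes in red, the other one-carbon genes in blue and dashed lines at -1 and 1. All 9 enzymes lie between the dashed lines, MAT1A is at -0.66 and GNMT at -0.88, and 47 genes beyond 3 in either direction are not drawn.

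The enzymes were set beside 69 other genes of one-carbon metabolism, in 11 groups by role, of which 67 passed the count minimum. None of the 67 had a log2 ratio above 1 or below -1, and their median was -0.061, with 39 below 0 (58.2%, against 52.3% of all genes compared). Of the 65 with at least 100 counts, the interval lay above 0 for 20 (30.8%, against 29.1% of all genes with as many counts) and below 0 for 30 (46.2%, against 32.2%). Total-count scaling raised the median of all genes by 0.049, which turns small negative values such as that of ADK (-0.014) positive. GCSH and PSPH have related pseudogenes, so their counts are uncertain.

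**Figure D4:**
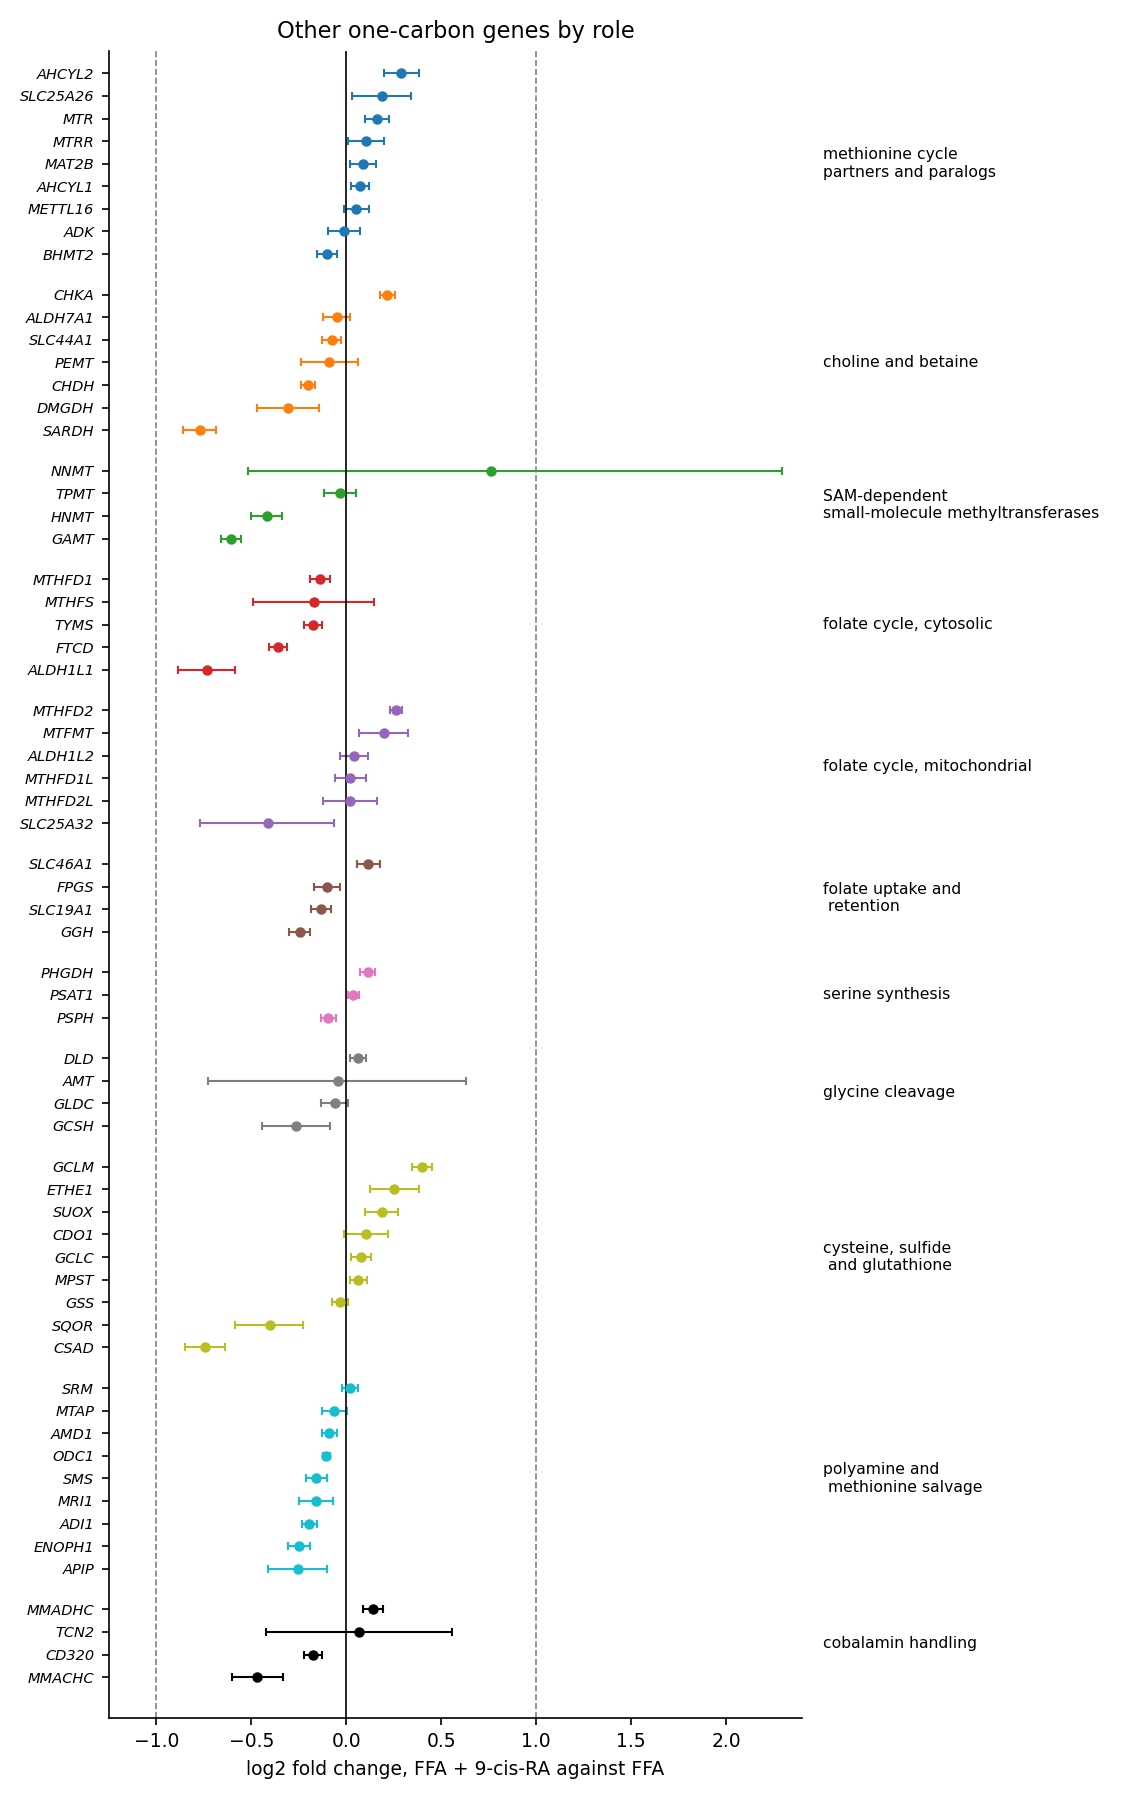
log2 fold changes of 64 of the 67 other one-carbon genes that passed the count minimum (horizontal axis, FFA + 9-cis-RA against FFA), grouped by role, with exact 95% counting intervals and dashed lines at -1 and 1. SARDH, CSAD, ALDH1L1 and GAMT lie farthest left, GCLM lies right of 0, and the wide bar of NNMT reflects its 22 counts over both libraries.

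Of the genes of choline and betaine metabolism, 6 of 7 had values below 0 (51.4% of all genes with at least 100 counts did), with the interval below 0 for 4 (against 32.2%). SARDH, which oxidizes the sarcosine that GNMT makes, had 2992 counts with FFA alone and 1720 with 9-cis-RA, a log2 ratio of -0.77 (95% interval -0.86 to -0.69). It was the lowest of the 67 genes, and its neighbor in the pathway, dimethylglycine dehydrogenase (DMGDH), was at -0.31. CHKA, which phosphorylates choline, was the highest of the group at 0.22. Among methyltransferases that use SAM on small molecules, GAMT, which makes creatine, had 6968 and 4487 counts, a log2 ratio of -0.61 (95% interval -0.66 to -0.55). HNMT, which methylates histamine, was at -0.42. NNMT, which methylates nicotinamide, had 8 and 14 counts, and its value of 0.76 had an interval that included 0 (-0.52 to 2.30). INMT had 0 counts in both libraries.

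The cytosolic and mitochondrial arms of the folate cycle had different medians, -0.18 over 7 genes and 0.030 over 6. In the cytosolic arm, ALDH1L1, which oxidizes formyl-tetrahydrofolate, had 991 counts with FFA alone and 584 with 9-cis-RA, a log2 ratio of -0.73 (95% interval -0.89 to -0.59). FTCD, a liver enzyme of histidine breakdown, was at -0.36, and TYMS, thymidylate synthase, was at -0.18. In the mitochondrial arm, MTHFD2 had 14502 and 17059 counts and the highest value, 0.26 (0.23 to 0.29). MTHFD1L and ALDH1L2 had intervals that included 0, and SLC25A32, the mitochondrial folate carrier, was the lowest at -0.41 from 162 and 119 counts. The difference between the arms has no replicate check.

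Serine synthesis was nearly level, with PHGDH highest at 0.11, PSAT1 at 0.036 and PSPH lowest at -0.095. In glycine cleavage, DLD was highest at 0.063 and GCSH lowest at -0.26. In the group of cysteine, sulfide and glutathione genes, 3 of 9 had values below 0, against 51.4% of all genes with at least 100 counts. GCLM, the modifier subunit of the rate-limiting enzyme of glutathione synthesis, had 4956 counts with FFA alone and 6411 with 9-cis-RA, a log2 ratio of 0.40 (95% interval 0.35 to 0.45). CSAD, which leads from cysteine to taurine, was at the other end with 1968 and 1154 counts and a value of -0.74 (-0.85 to -0.64). The polyamine and methionine salvage genes were below 0 in 8 of 9 cases, against the same 51.4%, and ran from APIP at -0.25 to SRM at 0.019, and ODC1, the first enzyme of polyamine synthesis, was at -0.10 with 49479 and 45134 counts. Among folate uptake and retention genes, the folate transporter SLC46A1 was highest at 0.12 and GGH, which trims folate polyglutamates, lowest at -0.25. Among cobalamin genes, MMADHC was highest at 0.14 and MMACHC lowest at -0.47 (95% interval -0.60 to -0.34).

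RefSeq promoter windows of GRCh38.p14, from 250 bases before to 50 after each start, were found for 8 of the 9 enzymes, with 12 windows in all. They were searched on both strands for the nuclear receptor half-site AGGTCA, its direct repeats DR1 and DR5, both of which contain the half-site, the E-box CACGTG and the C/EBP-ATF core TGATGNAA. None of the 12 windows held any of them. Over all 35116 windows, 13.8% held the half-site, 7.26% the E-box and 3.62% the C/EBP-ATF core, but only 0.023% held DR1 and 0.0057% DR5. With 12 windows and such shares, the absence of these motifs is no result about the enzymes. These letters were looked for in these windows only.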

How the data were processed

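Per gene, the authors deposited raw counts of fragments for 1 library in each group, made with featureCounts version 2.0.1, per the file headers, from read pairs with both ends mapped and a check of fragment length, on the reverse strand (strand setting 2). Multi-mapping and multi-overlapping reads were left out by these settings, so copied and overlapping genes are counted low. According to the sample records, RNA was poly(A)-selected, the build was GRCh38 and both libraries belong to one batch. The aligner and the annotation release are not given in the sources used here. The study names DESeq2 for its own comparison.

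Of 60623 entries, 58584 were given a symbol by identifier. Size factors came from DESeq2 version 1.42.0 and TMM factors from edgeR version 4.0.16, in R version 4.3.3. Fold changes, Clopper-Pearson and Poisson intervals and trends (statsmodels 0.14.6, loess span 0.3) were computed in Python 3.11.15 (scipy 1.17.1, pandas 2.3.3, numpy 2.4.6) and drawn with matplotlib 3.10.9. No model could be fitted. Intervals cover counting error only. Alternatives were TMM, total-count and protein-coding scaling, pseudocounts of 0.1 and 5, a minimum of 50 counts or none, removal of trends on length and mean expression, and CBS summed with CBSL. The steps were tested on simulated counts that held counting error only, which says nothing of the spread between libraries.

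The 9 members and the gene lists were chosen with earlier results of these data known. The text names all 9 members, the related genes MAT2B, BHMT2, AHCYL1, AHCYL2 and CBSL, and the 3 genes nearest to GNMT. It also names any gene past 1 and the highest and lowest gene of each role, except the highest of the cytosolic folate arm, which is not reported here. Further examples were picked with their values known. Of the listed genes, 3 are counted in their groups but not reported here by name. Shared windows were counted in GENCODE 29 transcripts.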

Additional observations from a re-analysis of the deposited data

How the results depend on the processing

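No library can be left out and no replicate error can be stated with 1 library per group, and depth limits GNMT (128 and 68 counts) and CBSL most. No paired analysis was possible because each group has a single library and no test was run. Of 82 values of single enzymes under an alternative, 75 stayed inside their own counting interval, 6 moved outside it, and MAT2A, whose interval excluded 0, turned sign in 1. A minimum of 50 counts or none could not move any of these values, since all 9 enzymes have at least 100 counts. Pseudocounts of 0.1 and 5 change little at such counts, so the 75 overstate the stability. Values whose interval included 0 also turned sign: SHMT2 was -0.0047 with protein-coding scaling and -0.015 without the length trend, and CBS was -0.042 with CBSL added. MAT1A stayed between -0.66 and -0.61, GNMT between -0.88 and -0.79 and CTH between 0.40 and 0.48 under all 9 alternatives. Total-count scaling gave 0.0021 for MAT2A, moved the median of the 9 enzymes to 0.051 and raised the number with an interval above 0 from 3 to 5, and TMM raised it to 4 with CBS. The other values outside their interval were MAT1A, SHMT2 and AHCY with total counts, AHCY without the expression trend, SHMT1 without the length trend, and the summed CBS. No alternative put an enzyme past 1 or -1. Over all genes, a pseudocount of 5 left 341 above 1 and 594 below -1, a minimum of 50 counts 153 and 361, and no minimum 3771 and 2493, against 689 and 1002, and of the genes past 1 in either direction the share below -1 was 59.3%, against 70.2% with a minimum of 50 counts and 39.8% with none. The median of the other one-carbon genes stayed below 0 under all 9 alternatives, from -0.091 to -0.012. It was taken over 67 genes, but over 66 with a minimum of 50 counts and 68 with none.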
